A study of Mus musculus with 10 samples.

Results

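The expression of 2 clonal Lin37 mutant mouse fibroblast lines was compared with each other, irrespective of whether Lin37 had been put back. All 10 libraries of the series were used, 4 of the line labelled 411-27 and 6 of the line labelled 632-2, and Lin37 status was kept as a covariate. Both lines are single-cell clones of NIH3T3, an immortalized mouse embryonic fibroblast line, made with Cas9 nickase. Clone 411-27 carries deletions at exon 4 of Lin37 (exon 4 clone), and clone 632-2 carries insertions and deletions at exon 6 (exon 6 clone). Each line had been given a doxycycline-inducible episome, a plasmid that is maintained outside the chromosomes under hygromycin selection, which expressed luciferase in the cultures called KO and wild-type Lin37 in those called rescue. So every culture carried mutant chromosomal Lin37, an episome and doxycycline, and KO and rescue differ in the episomal insert. All cultures were grown in 10% fetal calf serum and then starved in 0% serum for 60 h before RNA was prepared. The 4 groups, exon 4 KO, exon 4 rescue, exon 6 KO and exon 6 rescue, each had 2 biological replicates, and replicate 2 of both exon 6 groups was sequenced as 2 technical replicates, which were averaged. That left 4 replicates of each clone. Each line is 1 clone, so the targeted exon, the clone and the history of the line cannot be told apart, and the p-values measure the spread between cultures of a clone and not between clones.

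Lin37 is a subunit of MuvB, the core of the DREAM repressor complex, in which the pocket proteins p130 or p107 and E2F4 join MuvB to hold cell cycle genes down in quiescent cells. Fibroblasts build and remodel the extracellular matrix, secrete chemokines, complement proteins and growth factors, and change this output with serum, density and positional origin. Lines that have passed through a single cell inherit the chromosomes and the chromatin state of that cell, and NIH3T3 is known to be aneuploid.

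Guides against exons 4 and 6 are shown because the targeted exon is the designed difference between the lines. Each is 20 bases long, 5′ to 3′, with the cloning overhang and an added g removed, and capitals mark the bases that lie in an exon of the annotated Lin37 transcript (Lin37-201, GENCODE M21). Exon 4 of this transcript lies at chr7:30557265-30557294 and exon 6 at chr7:30556858-30557024 on the minus strand of GRCm38. Of the second exon 4 guide, 17 bases match the transcript's exon 4, and of the exon 6 guides, 17 and 9 bases match exon 6 in antisense orientation. The first exon 4 guide shares no run of 8 or more bases with the transcript. Which of these guides made each clone was not established.
exon 4, guide F: aatccctgcagggagagaca
exon 4, guide R: GCTGCCACAGGCAAAAGgta
exon 6, guide 2-F: CTTGATCACATACGTATctg
exon 6, guide 3-F: CATACGTATctggggtggta

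The deposited values are RPKM (reads per kilobase of gene, scaled to the mapped reads of the library) for 45232 gene entries, and between 7920 and 22034 entries of a library were listed at 0. They hold no counts, and between 28.8% and 44.9% of the low values of a library lay within 0.1 of a whole multiple of the commonest step, so the depth is unknown. Each library was rescaled by a median-of-ratios factor, which ran from 0.324 to 2.70. Over 7550 genes that averaged 1 RPKM or more, the first principal component held 46.6% of the variance of the 8 replicates and placed all 4 replicates of the exon 4 clone on one side and all 4 of the exon 6 clone on the other. The median absolute log2 difference over these genes was 0.18 and 0.23 between technical replicates, 0.11 to 0.24 between biological replicates of a group and 0.25 to 0.36 between clones of the same Lin37 status. Genes that fibroblasts do not use were not equally low: the mean over 1343 olfactory and vomeronasal receptor genes was 0.00137 and 0.0615 RPKM in the KO and 0.0288 and 0.0957 in the rescue libraries of the exon 4 clone, against 0.00209 to 0.0423 in the exon 6 libraries. The part of this background in genes near these levels was not tested beyond a fit with the background subtracted, in which 2158 of the 2282 genes called below and also tested there were called again.

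Lin37 itself, the targeted gene, lay at 0.285 and 0.284 in KO and 2.54 and 2.12 in rescue replicates of the exon 4 clone, and at 0.417 and 0.274 in KO and 4.92 and 4.76 in rescue replicates of the exon 6 clone, in rescaled RPKM. KO and rescue replicates did not overlap in either clone, as the labels of Lin37 status require. Between clones, both rescue replicates of the exon 6 clone were above both of the exon 4 clone, while the KO replicates overlapped. Across Lin37 status the clone difference of Lin37 did not pass the test, with a log2 difference of 0.51 ± 0.17 (SE, on log2(RPKM + 0.5)) and an adjusted p of 0.0822. In this and all later values a positive difference means a higher level in the exon 6 clone. Episomal and chromosomal transcripts were not told apart in these values.

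More genes were called between the lines than between KO and rescue. Of 16866 genes that averaged 0.1 RPKM or more, 1154 were higher and 1132 lower in the exon 6 than in the exon 4 clone (limma, Benjamini-Hochberg adjusted p under 0.05, 4 against 4 replicates), which is 13.6% of the genes tested, 6.84% higher and 6.71% lower. In the same fit, 285 genes, or 1.69%, were called for Lin37 status, 1.61% higher and 0.083% lower in KO. Both effects were called for 26 genes, 1.14% of the clone list and 9.12% of the Lin37 list. Among the called genes the replicates of the clones did not overlap for 1027 of the higher and 1040 of the lower genes. Over all genes tested, 9.31% had every exon 6 replicate above every exon 4 replicate and 11.1% the reverse. A difference of at least 1 on the log2 scale was reached by 179 higher and 148 lower genes, and 919 and 963 of the called genes were protein-coding. The median difference over all genes tested was -0.05. Calls were more frequent at higher levels: over 7485 positioned genes averaging 1 RPKM or more, 10.2% were called higher and 9.7% lower. Of 11364 protein-coding genes tested, 8.09% were called higher and 8.47% lower. The shares of gene lists below are set beside all genes tested, which include other gene types and lower levels. With same-numbered cultures of a clone as a random block, the counts were 737 higher and 678 lower, and 1415 of the 2286 calls remained. Leaving out exon 6 KO replicate 1 gave 528 higher and 483 lower genes, leaving out exon 6 KO replicate 2 534 and 499, exon 6 rescue replicate 1 707 and 601 and exon 6 rescue replicate 2 633 and 592, while without exon 4 KO replicate 1 the counts were 1244 and 1847. Without rescaling, on RPKM as deposited, 2484 genes were higher and 261 lower and the median of all genes stood at 0.51, so differences are given relative to rescaled libraries throughout.

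The same difference could be read in cells with and without Lin37, which are separate cultures. Between the means of KO cells (2 against 2 replicates), 252 genes were higher and 234 lower in the exon 6 clone (1.49% and 1.39%, together 2.88% of the genes tested). Between those of rescue cells the counts were 273 and 258 (1.62% and 1.53%, together 3.15%). Both contrasts came from the same limma fit, with the spread of a gene estimated over all 4 groups. The calls in KO and in rescue cells share that spread and are not independent of each other. Of the 486 genes called in KO cells, 479 had the same sign in rescue cells, and of the 531 called in rescue cells, 518 had the same sign in KO cells, while 288 genes were called in both with the same direction. Over all genes tested, 71.8% had the same sign. As a description across genes, which are not independent replicates, the differences in KO and rescue cells correlated with r = 0.78 over the 7550 genes averaging 1 RPKM or more, and all libraries share one set of rescaling factors. With the replicate number as a fixed block, the rescue counts rose to 479 and 461. Single replicates moved these counts. In KO cells, 207 and 181 genes were called without exon 4 rescue replicate 1 and 272 and 232 without replicate 2, but 84 and 132 without exon 4 KO replicate 1, 77 and 86 without exon 4 KO replicate 2, 0 without exon 6 KO replicate 1, where 910 and 695 had an unadjusted p under 0.05 in limma, and 10 and 7 without exon 6 KO replicate 2. Without exon 6 rescue replicate 1 they were 104 and 94 and without replicate 2 111 and 101. In rescue cells the counts were 289 and 318 without exon 4 KO replicate 1, 349 and 397 without exon 4 KO replicate 2, 212 and 387 without exon 4 rescue replicate 1 and 58 and 43 without exon 4 rescue replicate 2. They were 49 and 36 with exon 6 KO replicate 1 left out and again with exon 6 KO replicate 2 left out, and 8 and 7 and 17 and 12 without exon 6 rescue replicates 1 and 2.

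**Figure D1:**
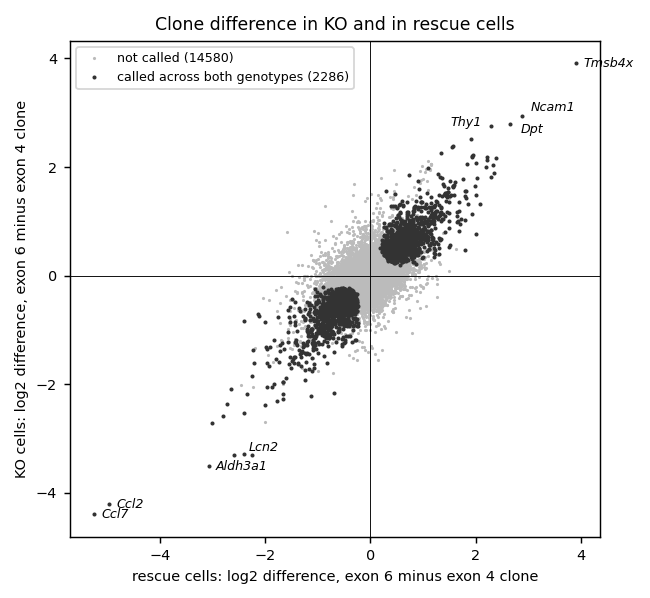
Log2 difference between the clones (exon 6 minus exon 4, on log2(RPKM + 0.5)) of each of the 16866 genes tested, in rescue cells on the x axis and in KO cells on the y axis, with the 2286 genes called across both genotypes in dark grey. Tmsb4x, Ncam1, Dpt and Thy1 lie far up on the diagonal and Ccl7, Ccl2, Aldh3a1 and Lcn2 far down on it.

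No gene passed the test for a clone difference that depended on Lin37. The limma interaction of clone and Lin37 status called 0 of 16866 genes, with 434 and 251 genes at an unadjusted p under 0.05 in either direction, and each group held 2 replicates. The smallest interaction p belonged to Aspn, Gm14517 and Glrx. Aspn encodes asporin, a small leucine-rich matrix protein that binds TGF-beta. It lay at 6.83 and 7.06 in KO and 5.91 and 6.36 in rescue replicates of the exon 4 clone, and at 1.31 and 1.02 in KO and 3.90 and 3.35 in rescue replicates of the exon 6 clone. Levels in the exon 6 clone were below those of the exon 4 clone in both states, and further below in KO cells (interaction -1.48, limma adjusted p = 0.989). The interaction of Glrx, which encodes glutaredoxin, was -1.19 (limma adjusted p = 0.989), and that of Gm14517, a processed pseudogene that stayed under 1 RPKM in every replicate, was 1.45 (limma adjusted p = 0.989).

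The 2 protein-coding genes with the largest difference towards the exon 4 clone were chemokines, secreted proteins that draw leukocytes to injured tissue. Ccl7 (monocyte chemoattractant) lay at 18.0 and 32.6 in KO and 31.5 and 42.5 in rescue replicates of the exon 4 clone, and at 0.448 and 0.964 in KO and 0.335 and 0.630 in rescue replicates of the exon 6 clone. Every exon 4 replicate was more than 10 RPKM above every exon 6 replicate, in both Lin37 states (-4.82 ± 0.27, adjusted p = 7.10e-05). Ccl2, the main monocyte chemoattractant of fibroblasts, lay at 39.4 and 59.8 in KO and 63.0 and 70.5 in rescue replicates of the exon 4 clone, and at 1.13 and 3.81 in KO and 0.955 and 2.68 in rescue replicates of the exon 6 clone (-4.59 ± 0.36, adjusted p = 0.000309). Ccl8 and Ccl11 (eotaxin) lie beside them on chromosome 11, where 6 chemokine genes fill 270.1 kb (chr11:82035571-82305690, GRCm38). Ccl8 reached 1.28 to 2.99 RPKM in the exon 4 clone and was listed at 0 in 3 of 4 exon 6 replicates, with 0.0771 in the other. Ccl11 reached 0.605 to 1.79 against 0 to 0.0247. The remaining 2 genes of the cluster, Ccl12 and Ccl1, were at 0.0746 RPKM or less in every replicate of both clones. So the 4 genes of the cluster averaging 0.1 RPKM or more were all lower in the exon 6 clone.

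On chromosome 5, the neutrophil chemokines Cxcl1 (29.1 to 52.6 in the exon 4 clone against 7.40 to 19.04 in the exon 6 clone, -1.67 ± 0.28, adjusted p = 0.00733) and Cxcl5 (49.7 to 118 in the exon 4 clone against 19.9 to 50.6 in the exon 6 clone, -1.52 ± 0.31, adjusted p = 0.0156) were also lower in the exon 6 clone, without overlap of the replicates for Cxcl1. Of the 22 chemokine and cytokine genes tested, 7 were lower and 2 higher in the exon 6 clone, 40.9% called against 13.6% of all genes. Their median difference was -0.31 against -0.05 over all genes. The others called lower included the cytokine Il6 (-0.78), at 0.289 to 0.833 in the exon 4 clone against 0.0116 to 0.0808 in the exon 6 clone. The 2 called higher were Ccl17, a T cell chemokine (0.94, 0.0532 to 0.247 in the exon 4 clone against 0.590 to 0.868 in the exon 6 clone), and Ptgs2, the inducible prostaglandin synthase (0.51).

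Most of the complement genes tested were lower in the exon 6 clone as well. C3, the central complement protein, lay at 155 and 158 in KO and 142 and 169 in rescue replicates of the exon 4 clone, and at 31.3 and 44.7 in KO and 35.6 and 50.1 in rescue replicates of the exon 6 clone. The lowest exon 4 replicate held 2.84 times the highest exon 6 replicate (-1.96 ± 0.17, adjusted p = 0.000432). C4b reached 3.12 to 7.86 in the exon 4 clone against 0.185 to 0.454 in the exon 6 clone (-2.69 ± 0.23, adjusted p = 0.000400), and 48.3% of its 31-base words are shared with its near copy C4a, which was also lower (-0.77), so the split of reads between them is uncertain. The protease subunits C1ra (-0.55) and C1rb (-0.62) and the membrane regulator Cd55 (-1.50, 0.521 to 1.77 in the exon 4 clone against 0.0520 to 0.171 in the exon 6 clone) were lower too, of which C1ra (adjusted p = 0.0933) and C1rb (adjusted p = 0.0588) lost their calls with the random replicate block. In all, 6 of 10 tested complement genes were lower (median -0.59), and 80% were called in either direction against 13.6% of all genes. The 2 that were higher, the lectin pathway protease Masp1 (0.85) and the inhibitor Cd59a (0.51), stayed under 2 RPKM, and the call of Cd59a (adjusted p = 0.0574) was lost with the random block.

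**Figure D2:**
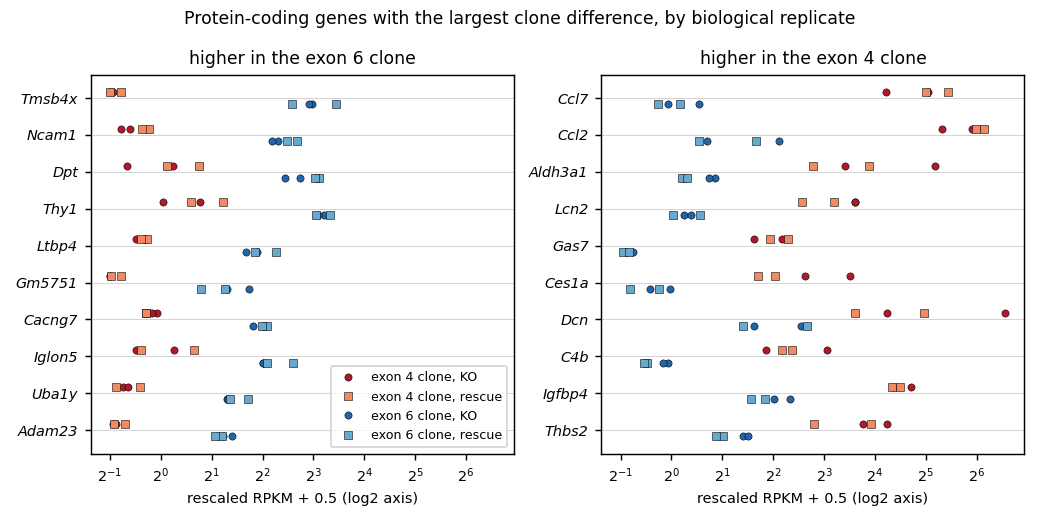
Rescaled RPKM + 0.5 on a log2 axis for the 10 protein-coding genes with the largest called difference in each direction, with circles for KO, squares for rescue, blue shades for the exon 6 and red or orange for the exon 4 clone, and 1 point per biological replicate. Replicates of the clones that do not overlap were a condition for choosing these 20 genes. Tmsb4x (3.91) and Ccl7 (-4.82) have the largest differences.

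The other genes with a much lower level in the exon 6 clone encode secreted proteins, enzymes and a cytoskeletal protein. Aldh3a1, an aldehyde dehydrogenase, lay at 6.39 to 35.8 in the exon 4 clone against 0.649 to 1.30 in the exon 6 clone (-3.29 ± 0.37, adjusted p = 0.00134). Lcn2 (lipocalin, an iron-siderophore carrier) lay at 5.44 to 11.8 in the exon 4 clone against 0.522 to 0.974 in the exon 6 clone (-2.94 ± 0.20, adjusted p = 0.000199). Gas7, a gene of growth-arrested cells, lay at 2.57 to 4.36 in the exon 4 clone against 0.0151 to 0.0957 in the exon 6 clone (-2.86 ± 0.15, adjusted p = 6.96e-05), so that no exon 6 replicate reached 0.1 RPKM. The carboxylesterase Ces1a lay at 2.76 to 10.9 in the exon 4 clone against 0.0718 to 0.479 in the exon 6 clone (-2.84 ± 0.26, adjusted p = 0.000577). Igfbp4, which binds insulin-like growth factors, lay at 19.6 to 25.8 in the exon 4 clone against 2.44 to 4.54 in the exon 6 clone (-2.54 ± 0.14, adjusted p = 7.10e-05). Replicates of the exon 4 clone varied widely for Aldh3a1 and for the proteoglycan Dcn, and evenly for Igfbp4 and Gas7.

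In the other direction, Tmsb4x, which encodes thymosin beta 4, the main protein that sequesters actin monomers, was nearly absent from the exon 4 clone. It lay at 0.0195 and 0 in KO and 0 and 0.0849 in rescue replicates of the exon 4 clone, and at 7.33 and 7.02 in KO and 10.4 and 5.47 in rescue replicates of the exon 6 clone (3.91 ± 0.17, adjusted p = 5.32e-05). Tmsb4x is X-linked (chrX:167207093-167209315, minus strand), and none of its 31-base words occurs in another annotated transcript. Its paralog Tmsb10 on chromosome 6 was higher in the exon 6 clone as well, at 10.1 to 11.9 in the exon 6 clone against 3.90 to 5.92 in the exon 4 clone (1.12 ± 0.13, adjusted p = 0.00134), a gene chosen after its values were seen. Ncam1, the neural cell adhesion molecule, lay at 0.0840 and 0.158 in KO and 0.356 and 0.270 in rescue replicates of the exon 4 clone, and at 4.43 and 4.07 in KO and 5.87 and 5.11 in rescue replicates of the exon 6 clone (2.91 ± 0.09, adjusted p = 7.76e-06). Tmsb4x and Ncam1 were chosen among genes whose clones did not overlap, so their separation in KO and in rescue cells was given by that choice.

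Among the other genes of these 10, Dpt (dermatopontin, a matrix protein that binds decorin) lay at 4.93 to 8.14 in the exon 6 clone against 0.134 to 1.18 in the exon 4 clone (2.72 ± 0.21, adjusted p = 0.000309). Thy1, a surface glycoprotein that marks many fibroblasts, lay at 7.81 to 9.49 in the exon 6 clone against 0.531 to 1.83 in the exon 4 clone (2.52 ± 0.20, adjusted p = 0.000338). Ltbp4, which binds latent TGF-beta, lay at 2.69 to 4.34 in the exon 6 clone against 0.216 to 0.334 in the exon 4 clone (2.28 ± 0.12, adjusted p = 7.10e-05). The adhesion proteins Iglon5 (3.52 to 5.57 in the exon 6 clone against 0.216 to 1.07 in the exon 4 clone, 2.17) and Adam23 (1.61 to 2.13 in the exon 6 clone against 0.0190 to 0.114 in the exon 4 clone, 2.09) and the AMPA receptor regulator Cacng7 (3.00 to 3.75 in the exon 6 clone against 0.312 to 0.452 in the exon 4 clone, 2.18), known from neurons, were also among the 10. Ltbp4, Cacng7 and Iglon5 lie on chromosome 7. Gm5751, an X-linked gene, lay at 1.23 to 2.85 in the exon 6 clone against 0 to 0.0809 in the exon 4 clone (2.21), but 65.7% of its words are shared with genes of the Ssxb family, so its value is uncertain.

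The sequence before the RefSeq start of Tmsb4x is given because this gene has the largest gain of all (RefSeq, GRCm38.p6, chrX:167209219-167209468, minus strand, 250 bases). The RefSeq start lies downstream of the GENCODE start used for the span above, so the last bases of this stretch fall within that span. It holds neither of the motifs searched below, CCAAT and CACNCCAC.
Tmsb4x: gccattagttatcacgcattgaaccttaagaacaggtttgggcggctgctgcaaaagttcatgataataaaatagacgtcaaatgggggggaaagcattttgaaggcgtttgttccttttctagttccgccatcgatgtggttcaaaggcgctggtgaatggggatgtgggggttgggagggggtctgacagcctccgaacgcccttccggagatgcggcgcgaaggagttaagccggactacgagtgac

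By the fixed limits for a gene that is on in one clone only (at least 1 RPKM in every replicate of one and at most 0.05 in every replicate of the other), no gene qualified in either direction. With looser limits of 0.5 and 0.1 RPKM, 8 protein-coding genes were on in the exon 6 clone and 6 in the other. Those of the exon 6 clone were Tmsb4x, Gm5751, Agap2, Cyba, Irx1, Eml2, Capn6 and Eid2. Eml2, a microtubule-associated protein, lay at 0.638 to 0.782 in the exon 6 clone against 3.96e-06 to 0.00122 in the exon 4 clone, and Cyba, the small subunit of the NADPH oxidase cytochrome, at 0.605 to 1.95 in the exon 6 clone against 0 to 0.0756 in the exon 4 clone. Agap2 lay at 0.941 to 1.14 in the exon 6 clone against 0.0244 to 0.0375 in the exon 4 clone. Those of the exon 4 clone were Gas7, Ccl8, Ccl11, Peg3, Scara5 and Cdh26. Peg3, a zinc finger gene expressed from the paternal allele, lay at 0.738 to 1.14 in the exon 4 clone against 0 to 0.00671 in the exon 6 clone, and the scavenger receptor Scara5 at 0.652 to 1.53 in the exon 4 clone against 0.00599 to 0.0487 in the exon 6 clone.

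Matrix genes were called in both directions. Of 19 collagen genes tested, 5 were higher and 0 lower in the exon 6 clone (26.3% called against 13.6% of all genes, median 0.28). Col1a1, the larger chain of type I collagen, lay at 138 and 98.7 in KO and 122 and 104 in rescue replicates of the exon 4 clone, and at 276 and 249 in KO and 324 and 215 in rescue replicates of the exon 6 clone (1.20 ± 0.18, adjusted p = 0.00528). Its partner chain Col1a2 (0.87, 121 to 154 in the exon 6 clone against 56.9 to 93.7 in the exon 4 clone), Col5a2 (1.14, 17.4 to 20.8 in the exon 6 clone against 5.98 to 9.42 in the exon 4 clone) and Col6a2 (0.56) were called with it, and Col10a1, the collagen of hypertrophic cartilage, stayed under 1 RPKM (0.425 to 0.649 in the exon 6 clone against 0.00485 to 0.0714 in the exon 4 clone, 0.88). The replicates of the clones did not overlap for any of these 5 collagens, which held for 1027 of the 1154 genes called higher. The call of Col1a2 was lost in 5 of the fits that left out 1 replicate (adjusted p up to 0.0668). Col3a1, the other fibrillar collagen abundant here, differed by 0.28 ± 0.21, which did not pass.

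Among 38 glycoproteins and proteoglycans, 8 were higher and 11 lower (50% called against 13.6% of all genes, median -0.12). Of the small leucine-rich proteoglycans, which bind collagen fibrils, Dcn (decorin) lay at 93.8 and 18.3 in KO and 30.8 and 11.7 in rescue replicates of the exon 4 clone, and at 2.58 and 5.34 in KO and 2.15 and 5.83 in rescue replicates of the exon 6 clone (-2.78 ± 0.57, adjusted p = 0.0164), and its adjusted p was 0.0595 without exon 6 KO replicate 1 and 0.0541 without exon 6 rescue replicate 1. Prelp (7.57 to 11.4 in the exon 4 clone against 1.16 to 2.35 in the exon 6 clone, -2.27 ± 0.11, adjusted p = 6.96e-05) and Ogn (6.52 to 11.9 in the exon 4 clone against 1.88 to 5.29 in the exon 6 clone, -1.38) were lower too, whereas Fmod was higher (0.59). Fibrillin 1 (Fbn1, the backbone of microfibrils) lay at 2.45 to 5.33 in the exon 4 clone against 0.343 to 0.455 in the exon 6 clone (-2.05 ± 0.18, adjusted p = 0.000475), and thrombospondin 2 (Thbs2) at 6.44 to 18.3 in the exon 4 clone against 1.34 to 2.35 in the exon 6 clone (-2.47 ± 0.23, adjusted p = 0.000526). The higher genes included tenascin C (Tnc, 1.30), fibulin 2 (Fbln2, 1.03) and thrombospondin 1 (Thbs1, 0.98), so that the 2 thrombospondins went in opposite directions. Fibronectin (Fn1), at 160.0 to 276 in the exon 4 clone against 135 to 202 in the exon 6 clone, did not pass (-0.19 ± 0.23, adjusted p = 0.609).

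Matrix proteases and their inhibitors gave 7 higher and 2 lower calls among 25 tested (36% called against 13.6% of all genes, median 0.26). The gelatinase Mmp2, one of the most abundant, lay at 85.3 to 140.1 in the exon 4 clone against 45.4 to 48.5 in the exon 6 clone (-1.18 ± 0.15, adjusted p = 0.00240). Higher were the proteoglycan-cleaving Adamts4 (2.00 to 3.91 in the exon 6 clone against 0.173 to 0.604 in the exon 4 clone, 1.92 ± 0.16, adjusted p = 0.000414), the procollagen peptidase Adamts2 (0.88), the cross-linking enzyme Loxl1 (0.90) and the inhibitor Timp3 (0.80). Of 13 integrin genes, 5 were lower and 0 higher (38.5% called against 13.6% of all genes, median -0.28), among them the fibronectin receptor chain Itga5 (-0.52), Itgav (-0.37) and Itgb8 (0.951 to 1.37 in the exon 4 clone against 0.172 to 0.275 in the exon 6 clone, -1.11). Itgb4 (-0.68) and Itga2b (-0.41) had under 1.2 RPKM, and their calls were lost with the receptor background subtracted (adjusted p = 0.0868 and 0.0746). They were also lost with the random replicate block, as was that of Itgav: Itgb4 (adjusted p = 0.0656), Itga2b (adjusted p = 0.0617) and Itgav (adjusted p = 0.0644).

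Both lines read as fibroblasts, with different marker profiles. The summed level of the 14 fibroblast markers lay between 557 and 747 RPKM in exon 4 replicates and between 689 and 896 in exon 6 replicates. Of 13 tested, Thy1, Col1a1 and Col1a2 were higher and Dcn, Fbn1, Pdgfrb (-0.89) and Pdgfra (-0.66) lower in the exon 6 clone (53.8% called against 13.6% of all genes). The other marker lists stayed low: epithelial markers summed to at most 1.20 RPKM in any replicate, haematopoietic to 2.62, endothelial to 0.456, skeletal muscle to 0.497 and neural to 0.516. Of their members, only Cdh1 (E-cadherin, 0.214 to 0.471 in the exon 4 clone against 0.0173 to 0.0929 in the exon 6 clone) was called (-0.59 ± 0.12, adjusted p = 0.0185), and with the receptor background subtracted its adjusted p was 0.0501. Cd14 (-0.25) and Des (0.17) did not pass. N-cadherin (Cdh2), the fibroblast cadherin, was higher in the exon 6 clone (3.05 to 4.21 in the exon 6 clone against 1.70 to 2.17 in the exon 4 clone, 0.67 ± 0.12, adjusted p = 0.00832). It was 1 of 2 higher and 1 lower among 11 cadherin and adhesion genes (27.3% called against 13.6% of all genes).

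Contractile genes of smooth muscle and activated fibroblasts, where called, were higher in the exon 6 clone, 4 of 11 (36.4% called against 13.6% of all genes, median 0.27). Tropomyosin 1 (Tpm1) lay at 8.59 to 12.3 in the exon 6 clone against 4.32 to 5.99 in the exon 4 clone (0.90 ± 0.15, adjusted p = 0.00606), while Tpm2 (0.58), Tagln (0.80, 0.416 to 0.734 in the exon 6 clone against 0.0629 to 0.259 in the exon 4 clone) and Actg2 (0.40) were called at lower levels. With the random replicate block, Tpm2 (adjusted p = 0.0869) and Actg2 (adjusted p = 0.0776) were no longer called. Of the words of Tagln, 62.2% overlap other genes, chiefly Gm48529 and Pcsk7. Acta2, smooth muscle actin, had the opposite sign (-0.51 ± 0.19) and did not pass. Vinculin (Vcl), which ties actin to adhesion sites and was chosen after its values were seen, lay at 13.1 to 15.5 in the exon 6 clone against 5.55 to 6.37 in the exon 4 clone (1.16 ± 0.10, adjusted p = 0.000381).

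Sterol synthesis was the list with the largest share of called genes in one direction. Cells make cholesterol through the mevalonate pathway, and its genes are switched on together by SREBP2 when sterols are short. Of 23 tested, 17 were higher and 0 lower in the exon 6 clone, 73.9% against 6.84% of all genes, with a median difference of 0.66. Their summed level was 40.9 to 78.6 RPKM in exon 4 replicates and 87.4 to 122 in exon 6 replicates, without overlap. Taken singly, 11 of the 23 had every exon 6 replicate above every exon 4 replicate, against 9.31% of all genes tested. Cyp51, lanosterol demethylase, lay at 4.40 and 4.43 in KO and 4.23 and 4.77 in rescue replicates of the exon 4 clone, and at 12.3 and 13.8 in KO and 11.2 and 13.6 in rescue replicates of the exon 6 clone, with little spread within a clone (1.41 ± 0.10, adjusted p = 0.000215). Nsdhl, a sterol dehydrogenase, lay at 3.35 and 2.70 in KO and 1.70 and 1.17 in rescue replicates of the exon 4 clone, and at 7.49 and 7.23 in KO and 6.49 and 4.59 in rescue replicates of the exon 6 clone (1.40 ± 0.16, adjusted p = 0.00134). Here, as for Mvd (1.20), the exon 4 replicates spread more than the exon 6 replicates. HMG-CoA synthase (Hmgcs1) lay at 8.04 and 7.12 in KO and 4.56 and 3.97 in rescue replicates of the exon 4 clone, and at 12.9 and 12.5 in KO and 8.79 and 8.15 in rescue replicates of the exon 6 clone (0.81 ± 0.10, adjusted p = 0.00178). Its KO values were above its rescue values within each clone, and the clones did not overlap. Squalene epoxidase (Sqle, 0.98) was called with it. Insig1 (0.51), Srebf2 (0.26), Idi1 (0.50), Stard4 (0.34), Ebp (0.18) and Fdft1 (-0.04) did not pass.

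**Figure D3:**
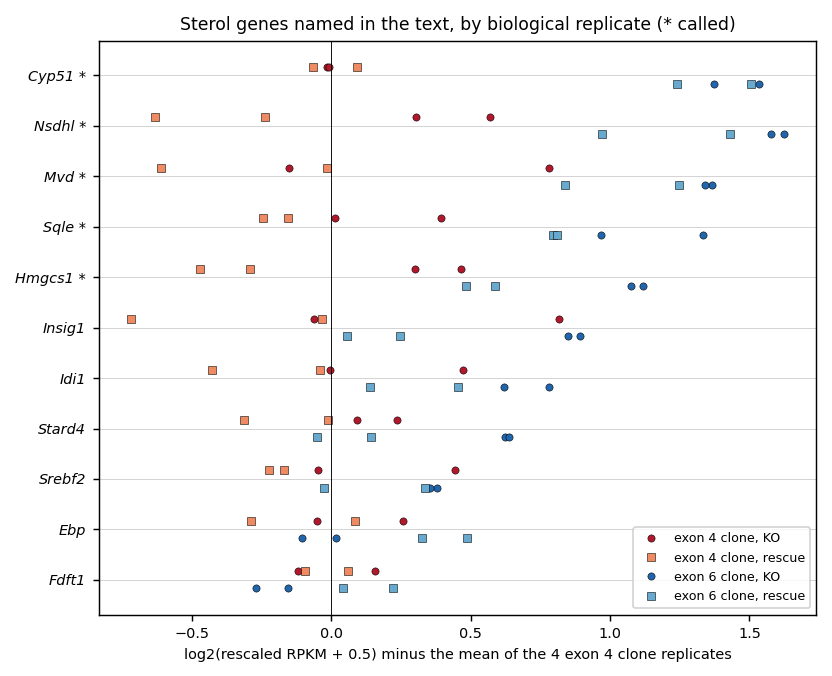
Log2(rescaled RPKM + 0.5) of the 11 of 23 tested sterol genes that the text names (5 of the 17 called and all 6 not called), minus the mean of the 4 exon 4 replicates, with 1 point per biological replicate, circles for KO, squares for rescue, blue shades for the exon 6 and red or orange for the exon 4 clone, and an asterisk for genes called. The blue points lie to the right of the red ones for Cyp51 (1.41) and Nsdhl (1.40), and both colours mix for Fdft1 (-0.04).

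Promoter sequences of 3 of these genes are given, since sterol genes are known to share regulators, whose part in these differences was not tested (RefSeq, GRCm38.p6, 250 bases before the gene start, 5′ to 3′ on the gene's strand). Capitals mark CCAAT, the core of the NF-Y site, and CACNCCAC, the core of a sterol response element, on either strand, where ATTGG is CCAAT read on the other strand, and the marked matches do not overlap each other. Hmgcs1 lies at chr13:119690101-119690350 (plus strand), Nsdhl at chrX:72918271-72918520 (plus strand) and Mvd at chr8:122443423-122443672 (minus strand).
Hmgcs1: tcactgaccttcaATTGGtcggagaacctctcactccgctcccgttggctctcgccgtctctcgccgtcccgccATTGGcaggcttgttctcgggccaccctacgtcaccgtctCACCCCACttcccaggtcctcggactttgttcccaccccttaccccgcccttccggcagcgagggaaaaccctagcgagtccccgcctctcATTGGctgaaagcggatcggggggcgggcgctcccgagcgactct
Nsdhl: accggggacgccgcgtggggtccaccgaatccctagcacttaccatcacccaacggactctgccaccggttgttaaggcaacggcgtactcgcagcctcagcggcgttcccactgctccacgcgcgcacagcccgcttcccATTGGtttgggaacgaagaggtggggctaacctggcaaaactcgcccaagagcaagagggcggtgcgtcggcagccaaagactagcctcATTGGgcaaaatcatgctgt
Mvd: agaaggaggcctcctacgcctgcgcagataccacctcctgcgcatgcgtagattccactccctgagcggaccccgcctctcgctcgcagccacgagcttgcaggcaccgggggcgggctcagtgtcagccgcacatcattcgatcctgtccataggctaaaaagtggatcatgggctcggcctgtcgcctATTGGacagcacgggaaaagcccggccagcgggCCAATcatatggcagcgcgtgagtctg

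In windows of 300 bases (250 before to 50 after the start), CCAAT was present in 15 of the 16 tested sterol genes that have an entry, in 39.9% of 9447 tested genes and in 37.4% of all 32851 promoters. CACNCCAC was present in 2 of 16, Hmgcs1 and Insig1, and in 6.24% of all promoters. Entries cover 69.6% of the sterol genes tested and 56.0% of all genes tested, under 80% of either, so the shares are listed and not compared. These are matches of letters and not binding sites. Fatty acid genes under the related factor SREBP1 moved in part with the sterol genes: Acly (11.3 to 13.1 in the exon 6 clone against 3.07 to 6.11 in the exon 4 clone, 1.29 ± 0.18, adjusted p = 0.00293), Fasn (0.91) and Scd2 (0.78) were higher. Of 20 adipogenic and fatty acid genes, 4 were higher and 5 lower (45% called against 13.6% of all genes, median 0.07). The lower ones included Lcn2, the lipid droplet gene Plin2 (-0.94) and the transcription factor Cebpb (15.2 to 16.8 in the exon 4 clone against 6.12 to 8.97 in the exon 6 clone, -0.99).

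Signalling genes were called in both directions. Of 26 growth factors and binding proteins, 10 were lower and 4 higher in the exon 6 clone (53.8% called against 13.6% of all genes, median -0.35). Besides Igfbp4, Igfbp7 (6.33 to 14.2 in the exon 4 clone against 2.82 to 3.06 in the exon 6 clone, -1.43 ± 0.19, adjusted p = 0.00252) and the factors Ereg (-1.21), Fgf10 (-1.11), Gdnf (-0.94), Fgf7 (-0.69) and Vegfa (-0.82) were lower. Higher were neuregulin 1 (Nrg1), a ligand of ERBB receptors, at 6.01 and 5.69 in KO and 7.36 and 6.31 in rescue replicates of the exon 6 clone, and at 1.79 and 1.53 in KO and 1.90 and 1.28 in rescue replicates of the exon 4 clone (1.69 ± 0.13, adjusted p = 0.000269), the EGF receptor ligand Hbegf (1.11), Bdnf (0.61) and Igf2 (0.704 to 1.38 in the exon 6 clone against 0.0367 to 0.269 in the exon 4 clone, 1.30 ± 0.15, adjusted p = 0.00134). Igf2 shares 63.1% of its words with other entries, above all the overlapping Gm49394. With the random replicate block the call of Vegfa (adjusted p = 0.0646) was lost.

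Of 25 receptors, 5 were lower and 1 higher, 24% called against 13.6% of all genes. The oncostatin M receptor (Osmr) lay at 4.14 to 5.77 in the exon 4 clone against 1.45 to 1.86 in the exon 6 clone (-1.36 ± 0.11, adjusted p = 0.000309), and its co-receptor gp130 (Il6st, -0.74), both PDGF receptors and Igf2r (-0.65) were lower, while Ror2 was higher (0.47). With the random block the calls of Il6st (adjusted p = 0.0702) and Ror2 (adjusted p = 0.0515) were lost. In the TGF-beta and BMP pathway (28 tested, 5 higher and 6 lower, 39.3% called against 13.6% of all genes, median -0.10), the activin subunit Inhba lay at 1.59 to 3.31 in the exon 6 clone against 0.208 to 0.585 in the exon 4 clone (1.62 ± 0.12, adjusted p = 0.000309) and Gdf5 was higher (1.14), whereas the co-receptor Tgfbr3 (14.0 to 18.6 in the exon 4 clone against 7.18 to 9.04 in the exon 6 clone, -0.99) and the BMP antagonist Grem1 (-0.89) were lower. The call of Gdf5 was lost with the random block (adjusted p = 0.0561). Of 15 Wnt pathway genes, 4 were higher and 1 lower (33.3% called against 13.6% of all genes), with the receptors Fzd1 (3.76 to 5.57 in the exon 6 clone against 1.73 to 2.77 in the exon 4 clone, 0.87 ± 0.11, adjusted p = 0.00200), Fzd4 (0.70) and Fzd5 (0.70) and the inhibitor Dkk2 (0.72, adjusted p = 0.0742 with the random block) among them. Of the 5 Notch pathway genes tested none was called by limma, 3 had an unadjusted p under 0.05, and Notch2 differed by -0.38 ± 0.12, adjusted p = 0.0675.

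Guidance genes, which steer axons and vessels and also act between fibroblasts, were mostly higher where called, 7 higher and 1 lower in the exon 6 clone among 24 tested. That is 33.3% called against 13.6% of all genes. Sema3a, a repellent ligand, lay at 1.77 to 2.18 in the exon 6 clone against 0.345 to 0.658 in the exon 4 clone (1.24 ± 0.12, adjusted p = 0.000578), and Sema3f (0.76) and the ephrins Efnb2 (1.95 to 2.58 in the exon 6 clone against 0.897 to 1.27 in the exon 4 clone, 0.90) and Efna1 (0.85) were higher, while Sema3c was lower (-0.67). The calls among the secreted semaphorins thus went in both directions.

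Called genes of serum response and growth arrest were mostly higher in the exon 4 clone. Of 27 immediate early genes, which mitogens induce within minutes, 7 were lower and 1 higher in the exon 6 clone (29.6% called against 13.6% of all genes, median -0.35). Fosl1 (4.14 to 5.58 in the exon 4 clone against 1.18 to 2.80 in the exon 6 clone, -1.10 ± 0.18, adjusted p = 0.00650), the phosphatase genes Dusp1 (6.07 to 9.50 in the exon 4 clone against 2.60 to 4.89 in the exon 6 clone, -0.999) and Dusp4 (-0.72), and Junb (-0.93) were lower, while the signalling inhibitor Spry4 was higher (0.61). Of the words of Fosl1, 54.5% are shared with Ccdc85b, so its value is uncertain. The exon 6 and exon 4 replicates overlapped for Junb, whose adjusted p with the random block was 0.0503. Of 28 growth arrest genes, 7 were lower and 2 higher (32.1% called, median -0.20). After Gas7, Klf4 (10.7 to 15.7 in the exon 4 clone against 4.02 to 5.03 in the exon 6 clone, -1.51 ± 0.14, adjusted p = 0.000578), Pnrc1 (-0.87) and the CDK inhibitor p21 (Cdkn1a, 24.5 to 37.8 in the exon 4 clone against 16.7 to 20.7 in the exon 6 clone, -0.71) were lower. The other CDK inhibitor of quiescence, p27 (Cdkn1b), was higher, at 5.14 to 5.83 in the exon 6 clone against 3.69 to 5.04 in the exon 4 clone (0.34 ± 0.09, adjusted p = 0.0394, and 0.0776 with the random block), and Ddah1 lay at 1.41 to 2.14 in the exon 6 clone against 0.127 to 0.538 in the exon 4 clone (1.45 ± 0.16, adjusted p = 0.00120).

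In the p53 and INK4 list, 6 of 26 genes were lower and 2 higher, 30.8% called against 13.6% of all genes. Fas, the death receptor, lay at 2.57 to 4.40 in the exon 4 clone against 0.997 to 1.34 in the exon 6 clone (-1.26 ± 0.16, adjusted p = 0.00240), and Trp53inp1 was lower (-0.80, adjusted p = 0.0588 with the random block). Higher were the CDK4 and CDK6 inhibitor p18 (Cdkn2c), at 8.79 to 10.7 in the exon 6 clone against 2.38 to 8.38 in the exon 4 clone (1.10 ± 0.24, adjusted p = 0.0217, and up to 0.0684 with 1 replicate left out), and Gadd45b (6.43 to 8.47 in the exon 6 clone against 2.66 to 4.52 in the exon 4 clone, 0.91). Trp53 itself differed by 0.08 ± 0.11, which did not pass.

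Cell cycle genes, the group that DREAM represses, were called higher in the exon 6 clone at about the share of all genes. Of 43 tested, 3 were called higher, 6.98% against 6.84% of all genes, and 0 lower against 6.71% (median 0.05). In either direction the share over all genes was 13.6%. These were the replication helicase subunits Mcm6, Mcm2 and Mcm3. Mcm6 lay at 0.699 and 1.06 in KO and 0.428 and 0.350 in rescue replicates of the exon 4 clone, and at 2.07 and 2.13 in KO and 0.667 and 1.20 in rescue replicates of the exon 6 clone (0.80 ± 0.15, adjusted p = 0.0106). The clones overlapped across Lin37 states and not within a state, and Mcm2 (0.57) and Mcm3 (0.55) had the same form. The calls of Mcm2 (adjusted p up to 0.0733) and Mcm3 (adjusted p up to 0.0928) were lost when some single replicates were left out. Of 14 genes for MuvB, DREAM and pocket proteins, 3 were lower and 0 higher, 21.4% called against 13.6% of all genes (median 0.04). The retinoblastoma gene Rb1 lay at 1.05 and 1.05 in KO and 0.937 and 1.46 in rescue replicates of the exon 4 clone, and at 0.540 and 0.544 in KO and 0.390 and 0.499 in rescue replicates of the exon 6 clone (-0.70 ± 0.12, adjusted p = 0.00816). Dyrk1a, the kinase that phosphorylates Lin52 and so promotes DREAM assembly (-0.53), and Lin52 (-0.50), were the others. With the random block, Dyrk1a (adjusted p = 0.0637) and Lin52 (adjusted p = 0.0799) were not called, which left Rb1 alone (adjusted p = 0.0184), and Lin52 was not called with the receptor background subtracted either (adjusted p = 0.0747). Lin9 (-0.05), Lin54 (-0.16), Rbl1 (0.05), Rbl2 (0.12) and E2f4 (0.44) did not pass.

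Hox genes, which keep a record of where along the body a fibroblast came from, were called in a few cases. Of 17 Hox genes, 3 were higher and 0 lower in the exon 6 clone, 17.6% called against 13.6% of all genes. Hoxd9 lay at 1.27 to 1.97 in the exon 6 clone against 0.504 to 1.01 in the exon 4 clone (0.89 ± 0.16, adjusted p = 0.0106), with Hoxd8 (0.51) and Hoxc5 (0.52), of which Hoxd8 (adjusted p = 0.0714) and Hoxc5 (adjusted p = 0.0806) lost their calls with the random block. Of 42 other developmental factors, 8 were higher and 7 lower, 35.7% called. Irx1 was listed at 0 in 3 exon 4 replicates and at 0.00107 in the other, and lay at 0.559 to 0.830 in the exon 6 clone (1.25 ± 0.10, adjusted p = 0.000317). Irx2 (0.52) and Irx3 (0.71) were higher with it. Prrx2, a homeobox gene of limb and skin mesenchyme, lay at 2.02 to 2.25 in the exon 4 clone against 0.492 to 0.660 in the exon 6 clone (-1.26 ± 0.09, adjusted p = 0.000204), and Zeb2 at 0.932 to 1.24 in the exon 4 clone against 0.172 to 0.219 in the exon 6 clone (-1.20 ± 0.10, adjusted p = 0.000317). The paralogs Twist1 (0.76) and Twist2 (-0.95) went in opposite directions, but 46.0% of the words of Twist2 are shared with Gm29100, so its value is uncertain.

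Of 24 imprinted genes, 2 were higher and 4 lower in the exon 6 clone, 25% called against 13.6% of all genes. Igf2, expressed from the paternal allele, was higher and Igf2r, expressed from the maternal allele, lower, and Peg3, Impact (7.03 to 10.4 in the exon 4 clone against 4.10 to 4.96 in the exon 6 clone, -0.78) and Dcn, which is imprinted in placenta, were lower. The second that was higher was Plagl1 (0.41, adjusted p = 0.0581 with the random block). Among the 27 tested genes of the Y chromosome, 3 were higher and 8 lower, beside shares of 6.84% higher and 6.71% lower over all genes. Uba1y, a Y-linked ubiquitin-activating enzyme expressed in testis, lay at 1.98 and 2.01 in KO and 2.80 and 2.06 in rescue replicates of the exon 6 clone, and at 0.0999 and 0.143 in KO and 0.0446 and 0.250 in rescue replicates of the exon 4 clone (2.10 ± 0.13, adjusted p = 0.000150). Gm2098, a pseudogene nearby, was higher too (2.20), and 61.6% of the words of Uba1y are shared with other entries, first of all Gm2098, so that the reads cannot be assigned to one of them. The ubiquitously expressed Y genes did not pass: Ddx3y (2.17 to 2.36 in the exon 4 clone against 1.67 to 2.46 in the exon 6 clone, -0.10 ± 0.13, adjusted p = 0.636), Eif2s3y (-0.08), Kdm5d (-0.09) and Uty (-0.25), and limma called none of the 5 tested genes of the list that joins them with X inactivation, of which 0 had an unadjusted p under 0.05. The 8 lower Y entries all lie within chrY:2785165-3783267 and some overlap each other, so they are not 8 separate loci. They included Rbmy (-0.46) and Gm3376 (-1.33), which belong to multi-copy families. The call of Rbmy was lost with the random block (adjusted p = 0.0596) and with the receptor background subtracted (adjusted p = 0.105).

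The differences were not spread evenly over the chromosomes. Over 7485 positioned genes averaging 1 RPKM or more, of which 10.2% were called higher and 9.7% lower, the median difference was -0.25 on chromosome 12, -0.23 on chromosome 16, -0.22 on chromosome 2 and -0.15 on chromosome 15, and 0.19 on chromosome 10 and 0.16 on chromosome 1. On chromosome 16, 28.1% of 231 genes were called lower and 4.33% higher, on chromosome 12 23.9% and 3.52%, and on chromosome 2 23.9% and 3.44%. On chromosome 10 the shares were 4.61% lower and 20.7% higher, and on chromosome 1 3.90% and 19.8%. Taken per replicate, as the median deviation of a chromosome's genes from their mean over the 8 replicates, the clones did not overlap on 8 of 20 chromosomes (1, 2, 8, 10, 12, 15, 16 and X) over all gene types. Chromosome 2 lay between 0.11 and 0.13 in the exon 4 clone and between -0.13 and -0.10 in the exon 6 clone. Chromosome 10 lay between -0.14 and -0.06 in the exon 4 clone and between 0.06 and 0.12 in the exon 6 clone, and chromosome 12 between 0.08 and 0.15 in the exon 4 clone and between -0.17 and -0.08 in the exon 6 clone. On chromosome 16, exon 4 rescue replicate 1 (-0.03) stood apart from the other exon 4 replicates (0.16 to 0.18). On chromosome 1, exon 4 rescue replicate 2 (0.06) came close to the exon 6 replicates. With protein-coding genes only, the clones overlapped on chromosome 1 (highest exon 4 replicate 0.0762, lowest exon 6 replicate 0.0729) and on chromosome 8 (0.0301 and 0.0124).

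The medians of chromosomes 1, 2, 10, 12, 15 and 16 had the same sign in KO and in rescue cells, for chromosome 12 -0.23 and -0.25 and for chromosome 10 0.20 and 0.17. They also kept it with protein-coding genes only, where chromosome 2 stood at -0.28 and the X chromosome at 0.18 against 0.07 over all genes. Chromosome 14 was mixed, at 0.12 over genes of at least 1 RPKM and -0.17 when genes down to 0.1 RPKM were included. DNA copy number was not measured, and a gain or loss of chromosomes and a change of expression along them cannot be told apart in these values.

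**Figure D4:**
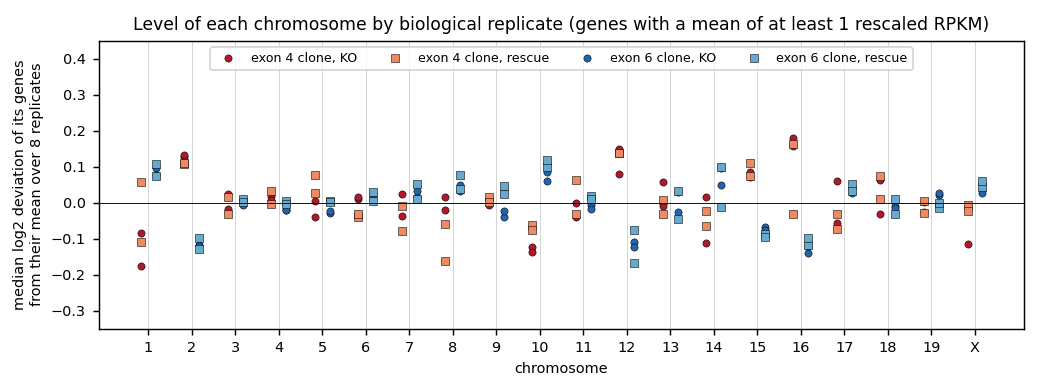
Median log2 deviation of each chromosome's genes from their mean over the 8 replicates (y axis) for chromosomes 1 to 19 and X, with 1 point per biological replicate, circles for KO, squares for rescue, blue shades for the exon 6 and red or orange for the exon 4 clone. Chromosomes 2, 12 and 15 lie above 0 in every exon 4 and below 0 in every exon 6 replicate, and chromosome 10 the other way round.

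Within chromosomes, 4 of 177 blocks of 40 neighbouring genes had a median above 0.3 and 5 one below -0.3. The lowest was the first block of chromosome 16 (chr16:3744093-13703612, median -0.49), where 21 of 40 genes were called lower, 0 higher, and the replicates lay between 0.16 and 0.42 in the exon 4 and between -0.30 and -0.17 in the exon 6 clone. It holds Socs1, Emp2, Vasn and Tfap4. The distal part of chromosome 14 (chr14:54360834-123975618, 72 genes) had a median of -0.44 with 28 genes called lower, among them Slc25a37, Itm2b (40.6 to 52.8 in the exon 4 clone against 16.3 to 18.7 in the exon 6 clone), Stk24 and Ctsb. Rb1 lies in the same span but under the 1 RPKM minimum. The first 2 blocks of the same chromosome (chr14:3051653-24496959 and chr14:25459185-34345265) went the other way, with medians of 0.32 and 0.30, and hold Vcl and Zfp503 (2.36 to 3.20 in the exon 6 clone against 0.319 to 0.551 in the exon 4 clone). The clones did not overlap in any of these 4 blocks, which held for 57 of all 177 blocks. Further blocks below -0.3 lay on chromosome 2 (chr2:119547697-129170488, -0.34, 19 of 40 lower, with Fbn1), chromosome 12 (chr12:105684829-119262855, -0.31) and chromosome 15 (chr15:3268547-28025848, -0.31, with Osmr and Gdnf), and one above 0.3 on chromosome 10 (chr10:79854427-81060181, 0.35, with Gadd45b).

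The highest block, the last of chromosome 8 (median 1.20), covers a row of 5S ribosomal RNA entries (chr8:123538786-127597823). Of 55 such entries tested, 33 were called higher and 0 lower in the exon 6 clone, beside shares of 6.84% and 6.71% over all genes. Their sum was 10.8 and 87.5 RPKM in KO and 17.6 and 47.2 in rescue replicates of the exon 4 clone, and 112 and 166 in KO and 49.4 and 172 in rescue replicates of the exon 6 clone. The clones overlapped in this sum. The entries are near-identical copies between which reads cannot be divided, and ribosomal RNA had been depleted from the libraries. The part of depletion in these calls was not tested.

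Of the longer non-coding RNAs, those with the largest gains in the exon 6 clone were Gm12473 (1.44 to 2.38 in the exon 6 clone against 0 to 0.236 in the exon 4 clone, 2.07 ± 0.18, adjusted p = 0.000484), 2400006E01Rik (1.35 to 2.71 in the exon 6 clone against 0.0296 to 0.266 in the exon 4 clone, 2.06) and Kank4os (1.06 to 1.22 in the exon 6 clone against 0.0243 to 0.252 in the exon 4 clone, 1.42). Gm12473 shares 43.2% of its words with Npr2, and whether the counting used strand is not given in the sources used here. The largest losses were Gm28875 (1.74 to 2.10 in the exon 4 clone against 0.261 to 0.501 in the exon 6 clone, -1.46 ± 0.11, adjusted p = 0.000309), 4930447F24Rik (2.43 to 2.86 in the exon 4 clone against 0.698 to 0.959 in the exon 6 clone, -1.28) and 3300005D01Rik (1.15 to 1.97 in the exon 4 clone against 0.224 to 0.552 in the exon 6 clone, -1.10). The list of small RNA host genes and known non-coding regulators gave 1 call among 13, or 7.69% against 13.6% of all genes. It was Snhg8 (12.6 to 15.4 in the exon 6 clone against 8.25 to 10.3 in the exon 4 clone, 0.58). Of 2312 processed pseudogenes tested, 120 were called higher and 82 lower. These are 5.19% and 3.55%, against 6.84% and 6.71% of all genes. Reads of processed pseudogenes may belong to the parent genes.

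Stress and defence genes showed no common direction. Of the tested members, 34.3% of the antioxidant, 20% of the interferon, 20% of the MHC class I and 17.4% of the heat shock list were called. The share was 13.6% over all genes, so the last 3 lists lay near it. Among antioxidant and xenobiotic genes (35 tested, 5 higher and 7 lower, median -0.05), metallothionein 2 (Mt2) lay at 76.3 to 169 in the exon 4 clone against 23.8 to 36.8 in the exon 6 clone (-1.67 ± 0.26, adjusted p = 0.00534; 58.1% of its words are shared, above all with Gm45774) and Cyp1b1 at 4.01 to 8.02 in the exon 4 clone against 2.14 to 2.54 in the exon 6 clone (-1.19), and Mgst1, a microsomal glutathione transferase, at 2.28 to 2.88 in the exon 6 clone against 0.559 to 1.19 in the exon 4 clone (1.23 ± 0.15, adjusted p = 0.00200). Interferon-stimulated genes (30 tested, 3 higher and 3 lower, median 0.01) included Stat2 (2.24 to 2.33 in the exon 6 clone against 1.28 to 1.60 in the exon 4 clone, 0.52) and Dtx3l (-0.67), and Bst2, which was listed at 0 in both exon 4 KO replicates (0.99, adjusted p = 0.0728 with the random block). Of MHC class I genes (10 tested, 2 higher and 0 lower, median 0.14), the chaperone Tapbp lay at 21.9 to 27.5 in the exon 6 clone against 11.3 to 16.2 in the exon 4 clone (0.82 ± 0.15, adjusted p = 0.00918), and H2-K1, which shares sequence with other class I genes, was called at 0.32 but not with the random block (adjusted p = 0.0908). In the unfolded protein and heat shock list (23 tested, 3 higher and 1 lower, median -0.01), Hspb8 was higher (7.05 to 10.2 in the exon 6 clone against 3.82 to 5.57 in the exon 4 clone, 0.74), as were the mitochondrial chaperonins Hspd1 (0.57) and Hspe1 (0.44), which share a promoter, and Trib3 was lower (-0.68). Both chaperonins lost their calls with the random block: Hspd1 (adjusted p = 0.0559) and Hspe1 (adjusted p = 0.0706). Of the words of Hspd1, 53.1% are shared with other entries, first of all its pseudogenes.

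Glycolysis and hypoxia genes were called near the share of all genes, 19.2% against 13.6% (26 tested, 2 higher and 3 lower, median -0.15). They included the glucose transporter Slc2a1 (6.87 to 9.69 in the exon 4 clone against 4.33 to 5.60 in the exon 6 clone, -0.66), hexokinase 2 (Hk2, -0.44) and the collagen hydroxylase P4ha1 (0.47). Hk2 (adjusted p = 0.0619) and P4ha1 (adjusted p = 0.0653) lost their calls with the random block. Of the channels and transporters (22 tested, 3 higher and 3 lower, 27.3% called against 13.6% of all genes, median -0.05), the water channels split, Aqp1 higher (9.23 to 10.4 in the exon 6 clone against 4.55 to 6.65 in the exon 4 clone, 0.74) and Aqp5 lower (1.03 to 1.53 in the exon 4 clone against 0.267 to 0.786 in the exon 6 clone, -0.89), and the nucleoside transporter Slc29a1 was lower (-0.92). None of the 13 mitochondrially encoded genes was called by limma, 1 had an unadjusted p under 0.05, with mt-Co1 at 723 to 1665 in the exon 4 clone against 1056 to 1670.1 in the exon 6 clone (0.29 ± 0.33, adjusted p = 0.587).

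**Figure D5:**
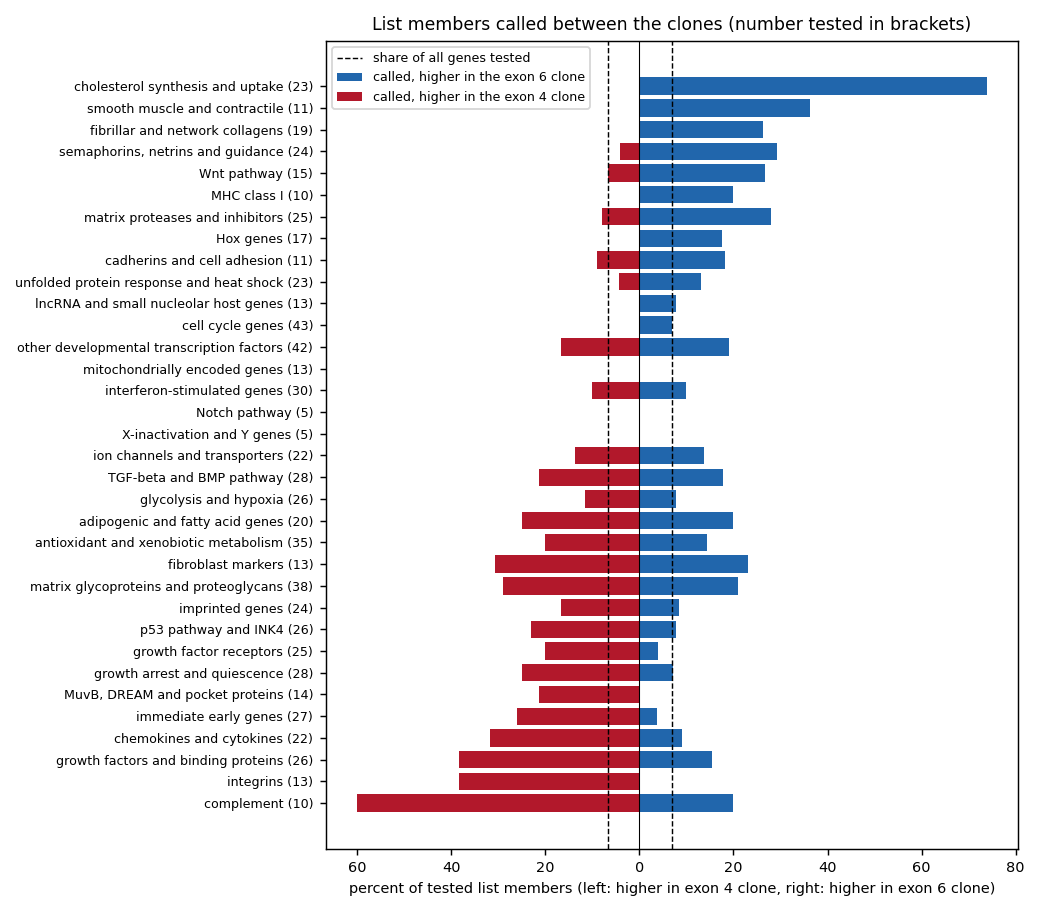
Percent of the tested members of each gene list that were called higher in the exon 6 clone (blue, right) or in the exon 4 clone (red, left), for lists with at least 5 tested genes, with dashed lines at the 6.84% and 6.71% of all genes. Sterol genes reach 73.9% to the right with none to the left, complement genes have 6 of 10 to the left, and the cell cycle list stays near the dashed line.

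The base composition of the promoters is given as values. The observed-to-expected CpG ratio had a median of 0.74 over 731 promoters of genes higher in the exon 6 clone, 0.76 over 787 of genes lower in it and 0.77 over the 9447 tested genes with an entry. Between 56.0% and 69.5% of a set had an entry, under 80% in each, so a check of composition over these sets is void.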

How the data were processed

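RNA of 10 libraries was depleted of ribosomal RNA and sequenced by the authors, who clipped adapters with cutadapt, mapped reads to mm10 with segemehl, counted them per gene with rnacounter against GENCODE vM5 and deposited RPKM values; per the labels' processing notes Picard 1.89 was also used. Gene names and positions came from GENCODE M21, in which 44585 of 45232 entries were found, and promoters from RefSeq. RPKM were rescaled by median of ratios over 8523 genes, technical replicates were averaged, and log2(RPKM + 0.5) of genes averaging 0.1 RPKM or more was fitted with limma 3.58.1 in R 4.3.3 (lmFit, eBayes with trend, clone plus Lin37 status, or 4 group means for contrasts within a state and the interaction). P-values were adjusted by Benjamini-Hochberg, and an adjusted p under 0.05 was called. Values after ± are SE. Same-numbered replicates deviated together in all 6 pairs of groups (r = 0.17 to 0.48), so fits with a fixed number block or a random block within clone (correlation 0.21) were added. In data simulated for the clone comparison over 16866 genes, 100.0% and 92.0% of differences of 2 and -2 and 86.0% and 70.0% of differences of 1 and -1 were recovered, with 11 false calls. The differences were placed in genes averaging 1 RPKM or more, and the noise was drawn independently for each replicate. Recovery below 1 RPKM, and recovery and false calls where same-numbered replicates deviate together, were not tested.

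Named were Lin37, the 10 protein-coding and 3 non-coding genes with the largest called difference without overlap in each direction, up to 4 called members of each of 40 gene lists by size of difference (or the most abundant where none was called), and the 3 smallest interaction p, and other named genes were chosen after their values were seen. The comparison, the members and the lists were chosen with earlier results of these data known. Words are 31-base stretches shared between transcripts of different genes. The alternatives tried are other pseudocounts, minimum levels and scalings, technical replicates kept apart or the first only, no Lin37 covariate, no trend, both blocks, each replicate left out, and, added after seeing the data, the receptor background subtracted and protein-coding genes only for the chromosomes. Some genes that the rule names are not reported here, and reads were not analysed.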

Additional observations from a re-analysis of the deposited data

Results flagged for a closer look

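Among the 4 replicates of a clone, single replicates lay far from the other 3 in 15 of 266 sets of values examined for the named genes, where chance alone gives about 1 in 20. Within the exon 4 clone, the highest value stood apart for Gm5751 in rescue replicate 1 (0.0809 against 0 to 0.00475 RPKM, gap 0.94 of the range), 2400006E01Rik in rescue replicate 2 (0.266 against 0.0295 to 0.0316 RPKM, gap 0.99 of the range) and Efnb2 in rescue replicate 1 (1.27 against 0.897 to 0.914 RPKM, gap 0.96 of the range). In the same clone it stood apart for Dyrk1a in rescue replicate 2 (2.04 against 1.61 to 1.65 RPKM, gap 0.90 of the range), Vegfa in KO replicate 1 (9.87 against 4.20 to 5.08 RPKM, gap 0.85 of the range) and Fbn1 in rescue replicate 2 (5.33 against 2.45 to 2.87 RPKM, gap 0.86 of the range). It also did so for Tagln in rescue replicate 2 (0.259 against 0.0629 to 0.0720 RPKM, gap 0.95 of the range), Igf2 in rescue replicate 1 (0.269 against 0.0367 to 0.0749 RPKM, gap 0.84 of the range) and Irx1 in rescue replicate 2 (0.00107 against 0 RPKM in the other 3, gap 1 of the range). The lowest value of the exon 4 clone stood apart for Hspd1 in KO replicate 1 (2.55 against 3.71 to 3.90 RPKM, gap 0.86 of the range). Within the exon 6 clone, the highest value stood apart for Iglon5 in rescue replicate 1 (5.57 against 3.52 to 3.78 RPKM, gap 0.87 of the range), Uba1y in rescue replicate 1 (2.81 against 1.98 to 2.06 RPKM, gap 0.90 of the range) and Ccl8 in KO replicate 2 (0.0771 against 0 RPKM in the other 3, gap 1 of the range). In the exon 6 clone it also stood apart for Slc2a1 in KO replicate 2 (5.60 against 4.33 to 4.51 RPKM, gap 0.86 of the range) and Sema3a in KO replicate 1 (2.18 against 1.77 to 1.82 RPKM, gap 0.87 of the range). Of the 9 high values of the exon 4 clone, 5 were in rescue replicate 2, the library with the highest receptor background (0.0957 RPKM), whose part in them was not tested. No gene was called for a difference between the clones that depends on Lin37.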

How the results depend on the processing

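With no minimum level, genes higher and lower in the exon 6 clone numbered 539 and 500 in the clone comparison, 36 and 28 in KO cells and 36 and 39 in rescue cells, and 171 and 6 were higher and lower in KO. On RPKM as deposited they were 2484 and 261, 560 and 64, and 42 and 21, with 875 higher in KO, 7 called for the interaction and 2 on in the exon 6 clone alone. With the random replicate block the clone counts were 737 and 678 and 27 were lower in KO. With the fixed block 479 and 461 were called in rescue cells and 26 lower in KO. Both blocks changed no call of a gene named under the rule other than those given above and 1 with the fixed block. With technical replicates as separate libraries 429 and 405 were called in KO and 461 and 568 in rescue cells. With a minimum of 1 RPKM 93 genes were higher in KO, and with the receptor background also subtracted 92 higher and 8 lower. Limits of 0.5 and 0.1 RPKM gave 8 and 6 genes on in one clone. Blocks past 0.3 or -0.3 numbered 2 and 17 with a minimum of 0.1 RPKM, 8 and 18 as blocks of 20, and 9 below with protein-coding genes only.

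Leaving out 1 replicate in turn gave 528 to 1244 higher and 483 to 1847 lower genes for the clones, 0 to 272 and 0 to 232 in KO cells, 8 to 349 and 7 to 397 in rescue cells, 174 to 265 and 4 to 16 higher and lower in KO, and 2 to 5 and 4 to 9 blocks. On RPKM as deposited, where all genes shift upwards, the sign turned for Itga5 (0.33), Hk2 (0.35), Il6st (0.22), Dyrk1a (0.18), Dusp1 (0.00199), Impact (0.0942), Notch2 (0.51), Trp53inp1 (0.0152), Slc2a1 (0.29), Pdgfra (0.30), Trib3 (0.0772), Itga2b (0.0322), Pnrc1 (0.12), Cd14 (0.38), Junb (0.12) and Ddx3y (0.62). Of 2856 values of named genes under all alternatives, 2538 kept direction and side of the threshold, 295 lost it and 7 gained it. Of 124 called genes named under the rule, 89 stayed called for the clones whichever replicate was left out. Those that did not included Loxl1 (adjusted p up to 0.0823), Itga5 (up to 0.0850), Twist2 (up to 0.0828) and Trib3 (up to 0.0918). The depth is unknown, so counting error could not be given.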

Other observations

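Genes outside the lists also differed between the clones where blocks of neighbours did, chosen after their values were seen. Tnfaip2, a TNF-induced gene on chromosome 12, lay at 2.54 to 5.19 in the exon 4 clone against 0.600 to 0.905 in the exon 6 clone (-1.81 ± 0.16, adjusted p = 0.000498). Gamt, which makes creatine, on chromosome 10, lay at 1.66 to 2.12 in the exon 6 clone against 0.367 to 0.718 in the exon 4 clone (1.14 ± 0.11, adjusted p = 0.000608). On chromosome 15 the endocytic adaptor Dab2 lay at 5.73 to 8.50 in the exon 4 clone against 3.11 to 3.38 in the exon 6 clone (-0.94 ± 0.11, adjusted p = 0.00167) and the mitochondrial NAD kinase Nadk2 at 2.24 to 4.97 in the exon 4 clone against 1.21 to 1.53 in the exon 6 clone (-1.15 ± 0.20, adjusted p = 0.00873). On chromosome 14 the small GTPase Arf4 lay at 12.6 to 14.5 in the exon 6 clone against 5.57 to 9.33 in the exon 4 clone (0.89 ± 0.13, adjusted p = 0.00409). The replicates of the 2 clones did not overlap for any of these genes. That adds nothing to their choice, since it held for 1027 of the 1154 higher and 1040 of the 1132 lower calls. Over all genes tested it held for 9.31% with the exon 6 clone above and 11.1% with the exon 4 clone above.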
